A study of Mus musculus with 6 samples.

Results

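The broad constitutive open domains are 108 stretches of the mouse genome that were open in every library of young and old bone marrow macrophages and spanned 2000 bp or more. They were chosen from the authors' peak lists in steps: the 50000 strongest peaks of each list were taken, peaks that overlapped by at least 1 bp in any list were merged on chromosomes 1 to 19 and X, and a merged region was kept if all 6 lists had a strong peak in it and its merged width reached the threshold. The strong peaks formed 66216 merged regions. Of these, 33698 held a strong peak in all 6 libraries and are called constitutive here, and 108 of the constitutive regions passed the width threshold. The other 33590 constitutive regions were narrower. Because both the presence in all libraries and the merged width chose the members, both are described without a test, and every comparison of width between ages is conditional on that choice.

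The libraries were made by Omni-ATAC, a form of ATAC-seq in which a transposase cuts accessible DNA, from wild-type BALB/c mice. Marrow from crushed leg and arm bones was cultured, the cells that did not adhere were removed, and the adherent cells that grew were typed as F4/80+CD169+ macrophages. The young donors were aged 3 weeks and the old ones more than 78 weeks, with 3 libraries of 50000 cells at each age. Nothing in the labels ties the 3 libraries of an age to separate animals or cultures. The tests therefore set age differences against a library-to-library spread that may be technical.

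Active gene promoters are kept free of nucleosomes, and at promoters rich in CpG dinucleotides (CpG islands) the open stretch can reach beyond the core promoter into the first part of the gene. Broad domains of active promoter chromatin are known from many tissues at genes for transcription regulators and for identity genes of the cell, and CpG islands are common at genes that most cells use. In macrophages, identity genes include those of the colony stimulating factor receptors, and their enhancers are bound by the transcription factor PU.1, the product of Spi1.

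Most of the domains lay on promoters, so the bases before the start sites of 5 of them are shown, with that of Cxcl13 for contrast, a gene with no strong peak at its start in any library. Tagln2, Kdm7a and Stat6 were among the widest domains, and Trim47 and Ahnak were among those whose scaled width lay apart between ages. Capitals mark CpG dinucleotides. Each sequence holds the 250 bases before the RefSeq start site, 5′ to 3′ on the strand of the gene (GRCm38.p6, whose primary chromosomes mm10 shares). The positions are chr1:172499996-172500245 (plus strand) for Tagln2, chr6:39206774-39207023 (minus strand) for Kdm7a, chr10:127642736-127642985 (plus strand) for Stat6, chr11:116110236-116110485 (minus strand) for Trim47, chr19:8989034-8989283 (plus strand) for Ahnak and chr5:95956689-95956938 (plus strand) for Cxcl13.
Tagln2: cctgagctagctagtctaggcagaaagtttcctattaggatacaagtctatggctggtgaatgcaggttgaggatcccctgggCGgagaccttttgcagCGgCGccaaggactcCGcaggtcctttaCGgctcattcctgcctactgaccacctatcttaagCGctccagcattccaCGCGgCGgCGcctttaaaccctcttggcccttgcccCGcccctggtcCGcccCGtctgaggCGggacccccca
Kdm7a: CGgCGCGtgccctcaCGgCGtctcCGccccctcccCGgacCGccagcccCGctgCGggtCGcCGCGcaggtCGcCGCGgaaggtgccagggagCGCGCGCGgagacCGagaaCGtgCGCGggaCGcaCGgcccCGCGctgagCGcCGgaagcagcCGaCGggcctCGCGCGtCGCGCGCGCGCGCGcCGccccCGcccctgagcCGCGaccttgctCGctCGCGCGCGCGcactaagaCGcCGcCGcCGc
Stat6: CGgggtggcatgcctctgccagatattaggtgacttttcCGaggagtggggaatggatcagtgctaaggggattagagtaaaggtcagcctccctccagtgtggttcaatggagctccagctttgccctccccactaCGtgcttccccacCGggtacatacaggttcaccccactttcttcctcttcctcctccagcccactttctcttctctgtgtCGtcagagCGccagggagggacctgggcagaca
Trim47: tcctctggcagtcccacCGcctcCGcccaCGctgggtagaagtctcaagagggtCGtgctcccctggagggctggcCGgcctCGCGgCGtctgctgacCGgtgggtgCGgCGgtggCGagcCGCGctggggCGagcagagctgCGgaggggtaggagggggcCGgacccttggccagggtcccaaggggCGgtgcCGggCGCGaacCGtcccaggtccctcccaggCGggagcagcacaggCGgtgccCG
Ahnak: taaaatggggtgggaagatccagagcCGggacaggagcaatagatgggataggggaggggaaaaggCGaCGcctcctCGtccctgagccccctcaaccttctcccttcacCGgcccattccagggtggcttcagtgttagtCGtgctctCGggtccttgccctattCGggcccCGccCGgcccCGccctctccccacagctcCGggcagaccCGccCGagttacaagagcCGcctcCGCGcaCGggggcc
Cxcl13: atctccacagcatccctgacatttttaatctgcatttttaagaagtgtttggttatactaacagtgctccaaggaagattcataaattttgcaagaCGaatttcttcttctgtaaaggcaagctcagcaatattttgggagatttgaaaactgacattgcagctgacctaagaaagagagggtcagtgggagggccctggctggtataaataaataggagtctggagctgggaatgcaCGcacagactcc
Over the bases shown, CpG numbered 56 for Kdm7a, 25 for Trim47, 18 for Ahnak, 14 for Tagln2, 6 for Stat6 and 2 for Cxcl13. The domains thus included both very dense and sparse CpG promoters.

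The 6 lists held 215947 to 254410 peaks, and the strongest 50000 covered 22.4 to 28.0 Mb. Libraries differed in how wide their peaks were at both ages: the median strong peak measured 480, 418 and 498 bp in the young libraries, in the order of replicates 1 to 3 used throughout, and 501, 391 and 407 bp in the old libraries. Old replicates 2 and 3 had the narrowest peaks and old replicate 1 the widest median. Markers of other cells of the marrow, namely stroma and osteoblasts, osteoclasts, B cells, T and NK cells, neutrophils, and erythroid cells and megakaryocytes, and of endothelium, epithelium, neurons and muscle, gave 0 genes at a domain in all 10 lists, where 0.513% of all protein-coding genes had one. With 10 to 18 genes in each list, a count of 0 cannot be told from that share. A narrower constitutive region lay at the start of 8 of 18 stroma and osteoblast markers and of 0 to 3 markers in each of the other 9 lists, against 48.4% of all genes. The read depth is unknown, and an open promoter does not by itself mark a cell type.

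The merged widths of the domains ran from 2001 to 3766 bp with a median of 2111 bp, and 70 of 108 were under 2200 bp. In all they covered 0.238 Mb, between 0.656% and 0.721% of the strong-peak length of a library. They were spread over all 20 chromosomes used, from 12 on chromosome 5 to 1 on chromosome 14. Just inside the threshold lay the domains at Egr1 (2001 bp), Erf (2003 bp) and Hspa8 (2003 bp), and just outside it the regions at Gspt1 (1997 bp), Ibtk (1997 bp) and Fem1b (1996 bp). At the threshold itself, members and non-members therefore differed by a few base pairs.

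Single libraries mostly covered less than the merged width. Only 5 of 108 domains were covered over 2000 bp or more by strong peaks in every library, 12 had a mean covered width of at least 2000 bp, and 32 reached it in no library, so that the name broad applies to the merged region and less to single libraries. Strong peaks covered on average 79.8%, 73.8% and 83.6% of the merged width in young replicates 1, 2 and 3. In old replicates 1, 2 and 3 they covered 81.8%, 61.3% and 64.1%. Young replicate 3 was the widest library at 40 domains, old replicate 1 at 31, young replicate 1 at 22 and young replicate 2 at 12, while old replicates 2 and 3 were widest at only 2 and 1. With the 3 young lists alone, 54 domains reached 2000 bp that did not reach it with the 3 old lists alone; 20 reached it with the old lists but not the young ones, 18 with the lists of either age and 16 only with both ages together. A domain that passed through 1 age had to be wide there. The 3 libraries with the widest peaks, of which 2 are young and 1 is old, were thus also the widest at most domains.

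In 29 domains each of the 6 libraries had a single strong peak, long or short, and 11 domains were made of at least 2 strong peaks in every library. Single-peak domains numbered 71, 56 and 79 in young replicates 1, 2 and 3 and 75, 44 and 48 in old replicates 1, 2 and 3. The order of the libraries was nearly that of their median peak widths. Within a domain the widest library was between 1.03 and 8.98 times the narrowest, with a median of 1.73. At 21 domains the ratio passed 3 on strong peaks; counted over all deposited peaks, weak ones included, 0 domains passed it, and the largest ratio was 1.98.

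**Figure D1:**
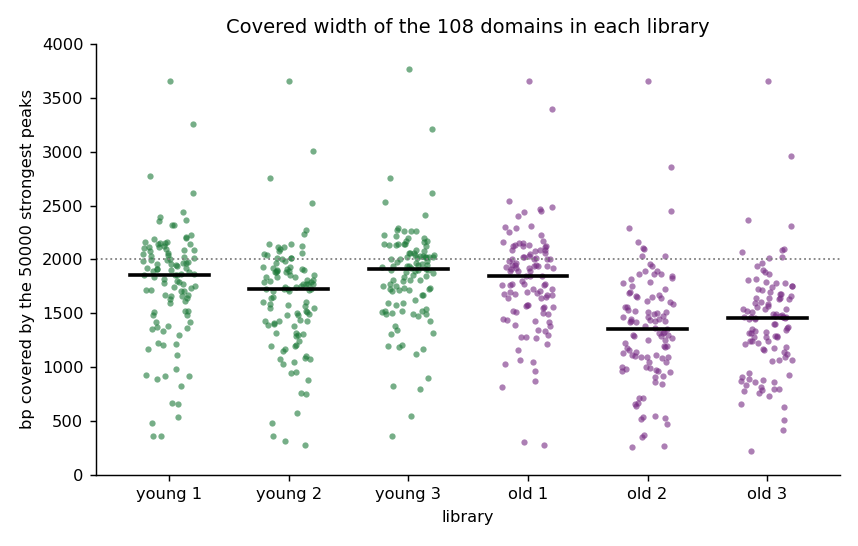
Covered width of the 108 domains by library. Each point is 1 domain, the y axis is the number of base pairs covered by the 50000 strongest peaks of that library, bars mark medians and the dotted line marks 2000 bp; the medians run from 1354 bp in old replicate 2 to 1908 bp in young replicate 3, and most points lie under the line in each library.

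The widest domain by mean covered width held a noncoding ribosomal RNA locus. It lay at chr17:39843001-39846766 across one end of Rn18s-rs5, a copy of the 18S ribosomal RNA gene, and reached 3658, 3654 and 3766 bp in the 3 young libraries and 3660, 3656 and 3655 bp in the 3 old ones. The young mean was 3693 ± 63.5 bp and the old mean 3657 ± 2.65 bp (SD, n = 3). In 5 of the 6 libraries the width lay between 3654 and 3660 bp. The peak here had a fold enrichment of only 2.03 to 2.06 over the local background in the authors' lists, although its rank by −log10 q was 12 to 14 in 5 libraries and 128 in old replicate 3. Ribosomal RNA genes exist in many near-identical copies, so reads of other copies may be counted at this locus, and its value is uncertain.

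The second widest domain, at chr9:124422518-124425919, lay at the gene model LOC108167694. It covered 3259, 3005 and 3214 bp in young against 3397, 2859 and 2963 bp in old libraries. Of all 108 domains, these first 2 alone had a merged width over 3000 bp. The third, at chr18:39489199-39491968, lay inside Nr3c1, the gene of the glucocorticoid receptor, more than 1 kb from both of its annotated ends. A start site within the gene that the reference used lacks would be missed, so a promoter there is not excluded. It covered 2770, 2757 and 2754 bp in young against 2544, 2289 and 2364 bp in old libraries, with means of 2760 ± 8.5 bp and 2399 ± 131 bp. Every old value was lower than every young value in base pairs. For the test, each width was divided by the library's total over all constitutive regions, and the p-value was adjusted over all 33698 of them. On this scale the gap was small: the log2 change, old minus young, was -0.07 with a standard error of 0.07 (limma, adjusted p = 0.827).

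Tagln2, which codes for the actin-binding protein transgelin 2, had the widest domain at the start of a known protein-coding gene, chr1:172499753-172502397. Its covered width was 2612, 2521 and 2619 bp in young against 2486, 2445 and 2309 bp in old libraries. Like the domain in Nr3c1, it was narrower in all 3 old libraries before scaling and had a log2 change near 0 after it (0.03, standard error 0.08). Unlike that domain, it had passed the width threshold through the young lists alone, so it had to be wide there. The domain ran 493 bp upstream and 2151 bp downstream of the start site, so most of its length lay over the transcribed side.

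Kdm7a, which codes for a histone lysine demethylase, had a domain at chr6:39205093-39207686. It covered 2361, 2079 and 2288 bp in young against 2400, 2158 and 1936 bp in old libraries, in 2 strong peaks in each of the 6. The age groups overlapped. Stat6, the transcription factor that carries the interleukin-4 signal, followed at chr10:127641880-127644322 with 2149, 1986 and 2263 bp in young against 2442, 2101 and 1905 bp in old libraries. Interleukin-4 signalling is a textbook route to alternative macrophage activation. In base pairs the old libraries held both the widest and the narrowest value at Stat6. Scaled to library totals, as explained for Nr3c1, all 3 old values lay above the young ones (log2 change 0.14, standard error 0.07). The same arrangement was found in 7.59% of all constitutive regions. Stat6 had passed the width threshold through the old lists alone, so it had to be wide there.

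Lamc1, the gene of the laminin gamma 1 chain of basement membranes, had 2196, 2271 and 2124 bp in young against 2114, 2031 and 2097 bp in old libraries (chr1:153331751-153334123). It was one of the 5 domains at or above 2000 bp in every library, with the ribosomal RNA locus, LOC108167694, Nr3c1 and Tagln2. Sh3glb1, which codes for the membrane-bending protein endophilin B1, had 2122, 2116 and 2140 bp in young against 2124, 2108 and 1968 bp in old libraries (chr3:144718568-144720721). These were among the most even domains of the set.

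Aff1, a subunit gene of the super elongation complex, had 2318, 2139 and 2267 bp in young against 2309, 1792 and 1699 bp in old libraries (chr5:103752746-103755066). Sp3, which codes for a zinc finger factor that binds GC boxes, had 2103, 2052 and 2223 bp in young against 2160, 1783 and 2073 bp in old libraries (chr2:72978821-72981062). At both genes old replicate 1 lay within the young range and old replicate 2 below it. Of the 10 widest domains 0 passed the test for a change with age, beside 0.0208% of all constitutive regions, and their log2 changes ran between -0.09 and 0.14.

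**Figure D2:**
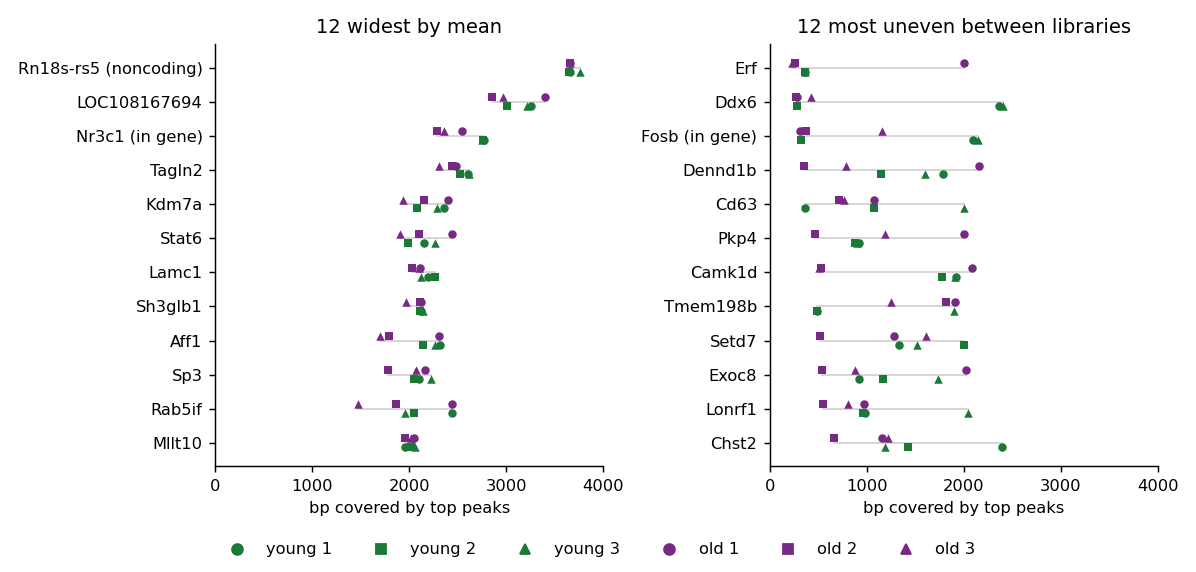
Covered width in base pairs at the 12 domains widest by mean over the 6 libraries (left) and at the 12 with the largest ratio of widest to narrowest library (right). Each symbol is 1 library (green young, purple old) and the grey line spans the 6; most of the widest domains keep their libraries close together (Rab5if less so), whereas at Erf and Ddx6 the values fall into a wide and a narrow set.

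At the uneven end, strong peaks covered only fragments of the domain in some libraries; the genes of this paragraph were chosen after their values were seen. Erf, an ETS-family repressor gene, had 364, 364 and 361 bp in young libraries and 2003, 259 and 223 bp in old ones, so its membership rests on old replicate 1. With weak peaks included it had 1860, 1632 and 1865 bp in young against 2003, 1552 and 1749 bp in old libraries. Ddx6, an RNA helicase of processing bodies, had 2364, 280 and 2409 bp in young against 279, 270 and 420 bp in old libraries on strong peaks. Over all deposited peaks it had 2364, 1849 and 2409 bp and 2123, 2095 and 1944 bp, which left no library narrow. Camk1d, a calmodulin-dependent kinase gene, had 1916, 1772 and 1910 bp in young against 2086, 523 and 510 bp in old libraries. At Erf and Ddx6, deposited peaks ranked below the strongest 50000 thus covered most of the domain in the narrow libraries.

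Gene starts dominated the location of the domains. A domain was placed at a gene start when it came within 1 kb of the start of a protein-coding gene; for the 4357 of 21631 genes whose start site is not in the RefSeq table used, both gene ends counted. By this measure 93 of 108 domains, or 86.1% (95% Wilson interval 78.3% to 91.4%, which covers counting error only), lay at a start, against 30.3% of the 33590 narrower constitutive regions. Overlapping a gene, in whole or in part, but away from its start were 5.56% of domains and 36.7% of narrower regions. Outside protein-coding genes lay 8.33% and 33%. A wider region meets a window more easily. With the region's centre in place of any part of it, the shares were 84.3% and 29.2%.

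The share at gene starts rose with width through all constitutive regions: 10% for those under 500 bp, 23.6% from 500 to under 1000 bp, 65.9% from 1000 to under 1500 bp and 81.9% from 1500 to under 2000 bp. The domains therefore continued a gradient, and their interval overlapped that of the class below (79.5% to 84.1%). The highest fold enrichment among the strong peaks of a region rose from the narrowest class to the next and fell from 1000 bp upward in every library. Its median over the domains was 4.75, 4.81 and 4.67 in young replicates 1, 2 and 3 and 4.77, 5.11 and 5.08 in old replicates 1, 2 and 3, while over narrower regions at gene starts it was 6.28 to 6.84. In each library the domains had a lower median than every narrower width class. The authors' caller gave 1 fold enrichment for each whole peak. A lower value at a long peak therefore does not show that its highest point was lower, and this was not tested.

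**Figure D3:**
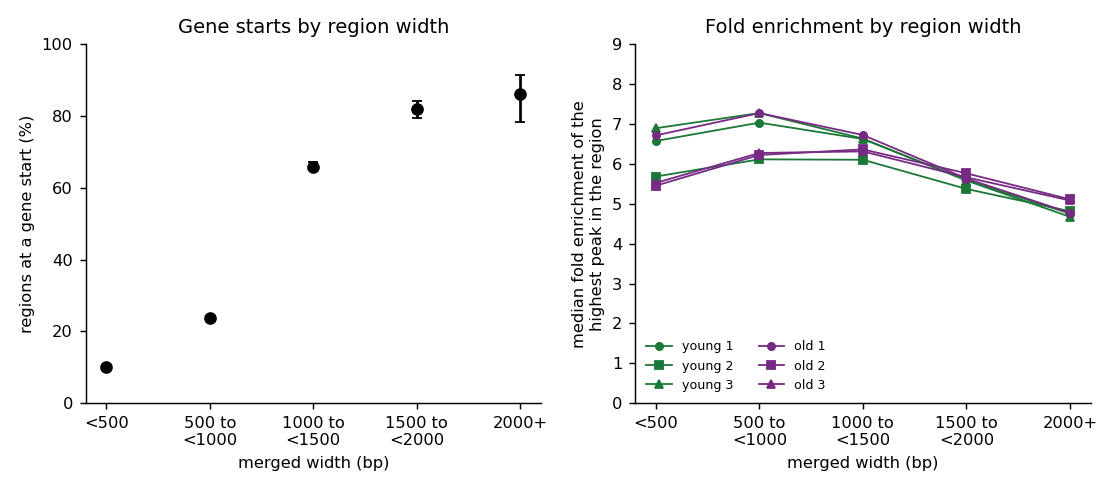
Location and fold enrichment by width of the constitutive regions. Left, percent of regions at the start of a protein-coding gene by merged width in bp, with 95% Wilson intervals (for most classes smaller than the symbol), rising from 10% to 86.1%; right, the median over regions of the highest fold enrichment per library (green young, purple old), lowest for the domains in every library.

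The domains at starts held 111 protein-coding genes. At 17 domains there were at least 2 genes (15.7% of domains; 18.3% of domains at a start, against 12.3% of narrower regions at a start), such as Cbx3 with Hnrnpa2b1, Hnrnpdl with Enoph1, and the histone genes H2ac20, H2ac21 and H2bc21. These examples were chosen after their values were seen. Near-identical histone genes can share reads, so widths at the histone cluster are uncertain. For 70 domains the strand and start site of the gene were known. The median domain reached 965 bp upstream and 1150 bp downstream of the start, and 41 of 70 (58.6%) reached farther downstream. In narrower regions at starts the medians were 448 and 555 bp with 60.3% longer downstream, so the domains were extended on both sides in about the same proportion. In both sets the start nearest the centre of the region was used. That choice by itself brings the upstream and downstream lengths closer together.

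Of the genes at domains, 73 could be placed by textbook role, a grouping made after the members were known; it is given to describe them. Transcription factors and cofactors were 15 genes: among them were Stat6, Sp3, Egr1, Erf, Elf2, Foxn2, Hivep1, Zbtb11, Zbtb14, Tbx18 and Skil. Chromatin and elongation proteins were 10 genes, including Kdm7a, Setd7 (a histone methyltransferase), Cbx3 (a heterochromatin protein), Mllt10 and Aff1 (elongation), Pds5a (cohesin) and Mepce (the 7SK RNA methyltransferase). Kinases, phosphatases and other signalling proteins were 15 genes, such as Pim1, Ptpn2, Gna13 and Sphk1. Ubiquitin and chaperone genes numbered 10, among them Usp9x, Cul1, Hspa8 and Hsp90ab1. RNA-binding and RNA-modifying proteins numbered 7, such as Ddx3x and Ddx6, vesicle and lysosome proteins 8, such as Cd63 and App, and glycosylation and matrix proteins 5, such as Lamc1 and Chst2.

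Within the transcription factors the covered widths were not alike: mean widths over the 6 libraries ran from 595.7 bp at Erf to 2141 bp at Stat6. Foxn2, a forkhead factor gene chosen after its values were seen, was almost constant, with 1993, 1887 and 1887 bp in young against 1845, 1889 and 1887 bp in old libraries. Egr1, an immediate early zinc finger factor, had 1999, 1707 and 1713 bp in young against 1581, 1469 and 1563 bp in old libraries. The old values of Egr1 were all below the young ones in base pairs, and it had passed the width threshold through the young lists alone. After scaling they overlapped, with a log2 change of -0.10 and a standard error of 0.10 (limma, adjusted p = 0.83).

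The lists of genes set up for macrophages and general cell functions met few domains. Over all protein-coding genes 0.513% had a domain at the start and 48.4% a narrower constitutive region. Of 30 macrophage transcription factors 0 had a domain and 24 a narrower region. Of 30 macrophage identity genes 16 (53.3%) had a narrower region and 1 had a domain. This was Csf2ra, the alpha chain of the receptor for granulocyte-macrophage colony stimulating factor. Its covered width was 1867, 1807 and 2019 bp in young against 1669, 1828 and 1663 bp in old libraries (chr19:61225802-61227820). The domain lay wholly inside the gene, beginning 598 bp downstream of the start site, and so did not cover the promoter. Its ranges overlapped at the 2 ages, and the log2 change was -0.01 with a standard error of 0.11.

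The genes behind the typing of the cells had no domain. Adgre1, the gene of F4/80, had a constitutive region of 563 bp at its start, covered over 559, 365 and 375 bp in young against 359, 360 and 362 bp in old libraries. Siglec1, the gene of CD169, had a strong peak at its start in young replicate 2 alone (192 bp), and Csf1r, the gene of the macrophage colony stimulating factor receptor, in young replicate 3 alone (465 bp). Spi1 had constitutive regions of 716 and 556 bp, which lay near opposite ends of the gene (chr2:91082803-91083518 and chr2:91115097-91115652). Cxcl13 and Cxcr5, the chemokine and receptor genes of the series title, had no strong peak at a start in any library. These 6 genes were therefore not among the broadest open regions of the lists.

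The inflammatory lists differed in how many of their genes had a narrower constitutive region, and few or none had a domain. Domains met 0 of 20 genes of NF-kB and its feedback (19 had a narrower region), 0 of 23 chemokine genes (14), 0 of 22 inflammatory cytokines and enzymes (11), 0 of 21 interferon response genes (18) and 0 of 17 MAP kinase phosphatases and Sprouty genes (15). Of 28 AP-1 and immediate early genes, 1, Egr1, had a domain and 25 a narrower region. A further domain, at chr7:19300555-19302892, overlapped one end of Fosb (chr7:19302696-19310118), away from its start, and lay mostly outside the gene. A start or end of the noncoding gene Gm26802 lay within 1 kb. The domain had 2100, 317 and 2144 bp in young against 309, 372 and 1157 bp in old libraries. The values at Fosb were high in young replicates 1 and 3 and low in young replicate 2, so the ages overlapped.

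Housekeeping groups also had mostly narrower regions: 0 of 43 cytosolic ribosomal protein genes had a domain and 43 a narrower region, 0 of 37 nuclear oxidative phosphorylation genes (36), 0 of 25 actin cytoskeleton genes (23), 0 of 41 chromatin regulators of the list used (35) and 0 of 21 lipid handling genes (19). Also without a domain were 28 Hox genes (7 with a narrower region) and 12 long noncoding RNAs (8). The heat shock and ubiquitin list had 2 of 19, Hspa8 and Hsp90ab1, which code for the constitutive HSP70 and HSP90 chaperones. Hspa8 had 1966, 1909 and 1520 bp in young against 1638, 1288 and 1643 bp in old libraries. Hsp90ab1 had 2115, 2139 and 1594 bp in young against 1637, 1558 and 1521 bp in old libraries. At both chaperone genes young replicate 3 lay with the old libraries.

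The remaining lists with a member gave 1 gene each. Sp3 stood for 16 KLF and SP factors (11 at narrower regions) and Cd63, a tetraspanin of lysosomes, for 29 lysosome genes (27). Cd63 was one of the most uneven domains, with 363, 1079 and 2005 bp in young against 1070, 716 and 761 bp in old libraries. Cdkn2c, which codes for a cyclin-dependent kinase inhibitor, was the 1 of 22 cell cycle arrest and p53 genes (20), with 1856, 1285 and 2083 bp in young against 1428, 1360 and 1177 bp in old libraries. Skil, which codes for the SMAD corepressor SnoN, was the 1 of 20 TGF-beta and SMAD genes (15), with 2227, 1792 and 1431 bp in young against 1380, 957 and 929 bp in old libraries. At Skil all 3 old values lay below the young ones, also after scaling (log2 change -0.61, standard error 0.18); it had passed the width threshold through the young lists alone, and it did not pass the test. Counts of 0 to 2 genes per list are too small to rank the lists against the 0.513% of all genes.

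By the start sites and gene ends used, 15 domains lay away from protein-coding starts. They were 6 that overlapped genes (Nr3c1, Fam20a, Golga7, Spaca6, Klhl35 and, at one end only, Fosb) and 9 elsewhere. Of the latter the widest after the ribosomal RNA locus lay at chr6:145339969-145342073, with 1860, 1755 and 1809 bp in young against 2088, 1673 and 1635 bp in old libraries. The next, at chr17:88255546-88257574, lay within the noncoding gene Gm31615 and had 1669, 1813 and 1948 bp in young against 1671, 1511 and 1538 bp in old libraries. In base pairs the ages overlapped at both. Scaled, the old values lay above the young ones at the chr6 domain (log2 change 0.12, standard error 0.07), and neither passed the test. That arrangement was found in 7.59% of all constitutive regions. The chr6 domain had passed the width threshold through the old lists alone and the chr17 domain through the young lists alone. Each had to be wide at that age. A start of a noncoding gene, or an end where the start is not known, lay within 1 kb at 27 of the 108 domains, and 23 of these were also at a protein-coding start.

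The promoters of the domains were rich in CpG, a property that the rule did not use. The 300 bases from 250 before to 50 after the start were given by RefSeq for 110 start sites of 86 genes at domains. Their median G+C content was 66.5%, with 29 CpG per promoter and a CpG observed-over-expected ratio of 0.851. At starts with a narrower constitutive region (10061 promoters) the medians were 61.3%, 22 and 0.791. At starts with no constitutive region (10874 promoters) they were 50.7%, 5 and 0.267. An observed-over-expected ratio above 0.6, a usual mark of a CpG island, was reached by 96 of 110 domain promoters (87.3%), 77.2% of those at narrower regions and 48.1% of all 21045 promoters.

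CpG content followed width in steps, as the location did. The class from 1500 to under 2000 bp had a median G+C content of 66.3%, 26 CpG and 85.3% of promoters above the ratio of 0.6, close to the domains. Some domains lay at promoters poor in CpG: Stat6, among the widest, had 8 CpG in its 300 bases with a ratio of 0.32, and Cd63, among the most uneven, had 6 with a ratio of 0.33. Kdm7a was at the other extreme with 65 CpG and a ratio of 1.28, as its printed sequence shows. Tagln2 had 18 CpG and Cxcl13, without a strong peak, 3.

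**Figure D4:**
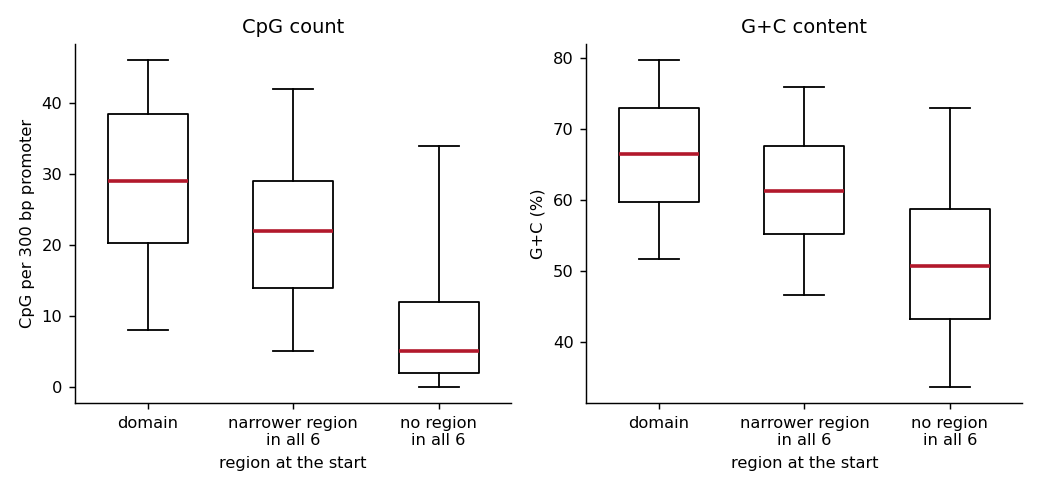
CpG count and G+C content (percent) of 300 bp promoters, by the region at the start. Boxes span the quartiles with the median in red and whiskers reach from the 5th to the 95th percentile over 110 promoters at domains, 10061 at narrower constitutive regions and 10874 without one; the median CpG count falls from 29 to 22 to 5.

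Short motifs were counted in the same promoters on both strands as exact letters. GGGCGG, the GC box, was found in 67.3% of domain promoters, 67.0% of those at narrower regions and 46.7% of all promoters. The ETS letters CCGGAAG were found in 19.1%, 20.4% and 11.7%, and the AP-1 letters TGANTCA in 5.45%, 4.52% and 7.04%. TATAAA, the TATA box, was found in 8.18%, 6.08% and 12.7%, and CCAAT in 28.2%, 39.8% and 38.5%. The E-box CACGTG was found in 13.6%, 10.7% and 7.91%, and the CRE letters TGACGTCA in 2.73%, 3.57% and 2.26%. The PU.1 letters GAGGAAGT were found in 2 of 110 domain promoters (1.82%), 3.09% and 3.15%; they share bases with other ETS sites. AAGATGGCG (YY1) and the NRF1 palindrome were found in 1 domain promoter each (0.909%), against 3.56% and 2.48% of those at narrower regions and 1.84% and 1.34% of all promoters. For the GC box and the ETS letters the domains lay near the narrower open promoters pooled over all widths. For CCAAT, PU.1, YY1 and NRF1 the share was lower, for the last 3 on counts of 1 or 2. By width, the GC box rose from 54.6% under 500 bp to 61.0%, 71.0% and, from 1500 to under 2000 bp, 76.3%. The domains thus lay below both classes from 1000 bp upward. In the same order CCAAT was found in 39.2%, 42.5%, 38.6% and 35.1%. Its low share at domains continued a fall with width from 500 bp upward. The motifs are matches of letters and do not show binding.

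Width was then set side by side between ages. Since the covered widths also chose the members, the values per library are a description without a test. Over the 108 domains, the median covered width was 1858, 1724 and 1908 bp in the young libraries, with a mean of 1830 ± 94.9 bp (SD, n = 3). It was 1848, 1354 and 1460 bp in the old libraries, with a mean of 1554 ± 260 bp. The difference was -276 bp and the groups overlapped, since old replicate 1 lay among the young libraries. Without old replicate 1 the difference was -423 bp and the groups lay apart, and without old replicate 2 it was -176 bp. The narrower constitutive regions moved alongside, with medians of 585, 528 and 603 bp in young and 595, 479 and 492.5 bp in old libraries.

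Divided by the median of the narrower regions, the domains were 3.176, 3.265 and 3.163 times as wide in young and 3.105, 2.828 and 2.963 times as wide in old libraries. The 3 old ratios were all lower than the 3 young ones (3.202 ± 0.0555 against 2.965 ± 0.139, SD, n = 3; difference -0.236). The gap depended on how width was taken. With all deposited peaks the difference was -0.0608 and the groups overlapped. With the same number of constitutive regions chosen by mean scaled width, so that each library had the same weight, it was 0.124 with a higher mean in old and overlapping groups; 47 of the 108 domains were in that set. The part of the choice of members in the difference was not tested.

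For single domains, the scaled width was tested with limma in 1 fit over all constitutive regions. At an adjusted p under 0.05, 0 of the 108 domains were wider and 0 narrower in old libraries, beside 0.0208% of all constitutive regions (0.0148% wider and 0.00594% narrower). At an unadjusted p under 0.05 there were 16 domains (14.8%), beside 7.18% of all constitutive regions, and the smallest adjusted p was 0.207. Since most domains passed the width threshold through 1 age, that age had to be wide, and nothing about ageing is read from these shares. The median log2 change was -0.08 over the domains, with 44 higher and 64 lower, and 0.04 over the 33590 narrower regions. Without scaling 21 domains were higher, with a median of -0.21, where the median over all constitutive regions was -0.10. In the set of as many regions chosen by mean scaled width it was 0.04, with 76 of 108 higher.

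**Figure D5:**
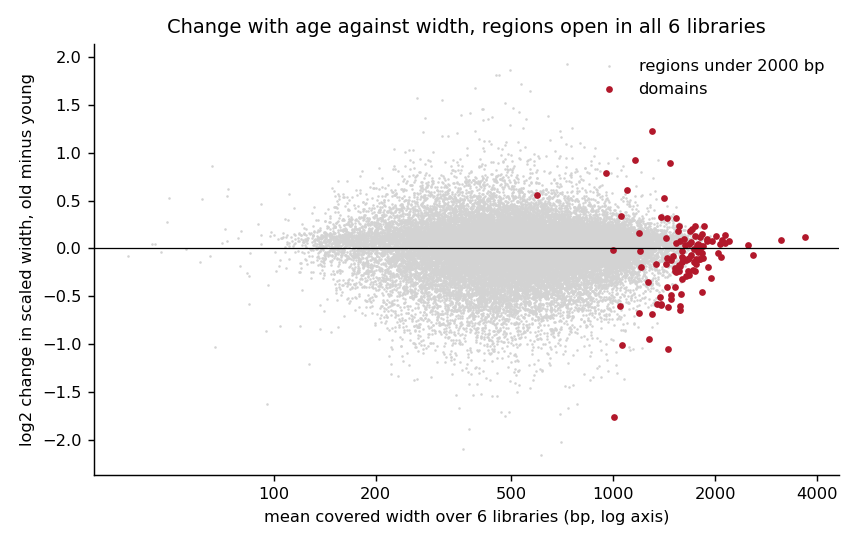
Change with age against width. The x axis is the mean covered width in bp over the 6 libraries (log axis) and the y axis the log2 change in scaled width, old minus young; red points are the 108 domains and grey points the 33590 narrower constitutive regions. Of the domains, 86 lie within 0.5 of 0.

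The spread of single domains was modest: 86 of 108 had a log2 change within 0.5 of 0, 4 reached 1 in size, and the median standard error was 0.15. The 4 were Ddx6, Camk1d, Fosb and Tmem198b, all of them uneven between libraries of the same age on strong peaks. Tmem198b, a gene of a transmembrane protein, had 482, 481 and 1902 bp in young against 1910, 1819 and 1246 bp in old libraries. Over all deposited peaks it had 1890, 1886 and 1902 bp and 1910, 1819 and 1754 bp. By location, the median log2 change was -0.08 at starts (38 of 93 higher) and -0.17 at domains that overlapped a gene away from its start (2 of 6 higher). It was -0.07 elsewhere (4 of 9 higher).

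The scaled widths of the 2 ages did not overlap at 23 domains, 10 with old above young (9.26% of the domains beside 7.59% of all constitutive regions) and 13 with old below young (12% beside 5.23%). More domains had passed the width threshold through the young lists alone (54) than through the old lists alone (20). These shares are therefore conditional on the choice of members, and nothing about ageing is read from them. The domains with the smallest p in each direction are given as values, since none passed the test. All but Ahnak passed the width threshold through the lists of 1 age alone, the age with the larger values, so they had to be wider there. The domain at chr13:5802855-5804910, at no protein-coding gene and within 1 kb of an end of the noncoding gene Gm35413, had 2045, 1911 and 1939 bp in young against 1283, 1001 and 1276 bp in old libraries. Its means were 1965 ± 70.7 bp and 1187 ± 161 bp (SD, n = 3), and the log2 change was -0.60 with a standard error of 0.10 (limma, adjusted p = 0.207). With all deposited peaks the log2 change was -0.14. Fitted with all 66216 merged regions and 200 bp added to each width it passed (log2 change -0.55, limma adjusted p = 0.0237), and the adjusted p ranged from 0.0237 to 0.769 over the alternatives.

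Next came chr12:73052289-73054343, also at no gene, with 2053, 1605 and 1508 bp in young against 811, 1002 and 658 bp in old libraries (log2 change -0.94, standard error 0.20; -0.38 with all deposited peaks). Rassf8, a gene of the Ras association domain family, had 1979, 1771 and 1988 bp in young against 1215, 1193 and 1346 bp in old libraries (log2 change -0.48, standard error 0.11; -0.21 with all deposited peaks). All 3 of these domains kept their old values under their young values in base pairs as well. Bid and Tent5a, named after their values were seen, showed the same arrangement and also passed through the young lists alone. Bid, a proapoptotic BCL2-family gene, had 1853, 1790 and 1757 bp in young against 1447, 1129 and 909 bp in old libraries. Tent5a, a gene of a poly(A) polymerase, had 1215, 1742 and 1627 bp in young against 869, 861 and 861 bp in old libraries.

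Among domains with higher values in old libraries, Ahnak had the smallest p. Ahnak codes for a very large scaffold protein, and its domain had 1353, 1198 and 1311 bp in young against 1701, 1415 and 1313 bp in old libraries (log2 change 0.32, standard error 0.08; 0.21 with all deposited peaks). In base pairs old replicate 3 lay within the young range, and apart from it only after scaling. Trim47, a gene of the tripartite motif ubiquitin ligases, had 826, 756 and 797 bp in young against 2470, 1315 and 797 bp in old libraries (log2 change 0.92, standard error 0.31; 0.13 with all deposited peaks). Its difference rested on old replicates 1 and 2. Eef1akmt3, a methyltransferase gene that shares its domain with Mettl1, had 1114, 578 and 1122 bp in young against 1266, 1111 and 1397 bp in old libraries (log2 change 0.61, standard error 0.24; 0.10 with all deposited peaks).

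By role, 8 of the 14 domains at transcription factors and 8 of the 15 at signalling genes had higher scaled widths in old libraries, beside 44 of all 108 domains (40.7%) and 56.6% of all constitutive regions. At chromatin and elongation genes it was 4 of 8 and at RNA genes 3 of 7. For domains at vesicle and lysosome genes it was 1 of 8, for ubiquitin and chaperone genes 3 of 10, for glycosylation and matrix genes 1 of 5, and for the 3 at receptors and immune genes (Csf2ra, Colec12 and Tnfaip2) 0. The median log2 changes of these groups ran between -0.29 and 0.04. No member of any group passed the test. The groups were made after the members were known, and most domains passed the width threshold through 1 age alone. Nothing about ageing is therefore read from the directions by role.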

How the data were processed

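ATAC-seq peaks of 3 young and 3 old libraries were used, grouped by the labels; 1 broad peak list per library was deposited, so replicates were not pooled. Tools named in the submitters' processing notes, without roles, are MACS2 2.1.0.20140616, Bowtie2 2.2.6, cutadapt 1.14, Trim Galore 0.4.4, Picard and SAMtools, and the build is mm10. Each deposited peak has a score, a fold enrichment (a ratio over local background), a −log10 q and a −log10 p from the authors' peak caller. The −log10 q ranked peaks within a list, and the fold enrichment described them; the score and −log10 p were not used. The sources used here do not give the handling of duplicates, read-end shifts or repeats. Read depth is unknown, so a deeper library can have wider peaks.

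Per constitutive region and library, the base pairs covered by the 50000 strongest peaks were summed, scaled to the library's total over all constitutive regions, and tested on the log2 scale with limma 3.58.1 in R 4.3.3 (trend, robust, Benjamini-Hochberg over 33698 regions), without a pseudocount. Values per library are given without a test, since the same widths chose the members. The limma step was tested on simulated data. Merging and overlaps used Python 3.11.15, numpy 2.4.6, pandas 2.3.3 and scipy 1.17.1, and figures matplotlib 3.10.9.

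Gene positions and promoters came from RefSeq (GRCm38.p6): 17274 of 21631 protein-coding genes had a start site and 4357 only gene ends. A domain carries the name of the gene whose start is nearest its centre. Named were the 10 widest domains by mean, the 3 with the smallest p per direction, up to 3 members of each gene list, Adgre1, Siglec1, Csf1r, Spi1, Cxcl13 and Cxcr5, regions next to the threshold, and the 3 widest at no protein-coding gene. Others are said to have been chosen after their values were seen. The members, lists and tests were chosen with earlier results of these data known. Alternatives were other numbers of top peaks, merging, widths, scalings, peak sets, a pseudocount, a covariate, each library left out in turn, and a replicate block. Chosen after seeing the data was a set of 108 regions picked by mean scaled width.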

Additional observations from a re-analysis of the deposited data

Results flagged for a closer look

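Strong peaks on chromosome Y and on unplaced contigs were outside the comparisons. Of the 50000 strongest peaks, 28, 44 and 23 lay there in young replicates 1, 2 and 3, and 31, 57 and 52 in old replicates 1, 2 and 3. On chromosome Y itself there were 14, 14 and 11 in young and 17, 24 and 21 in old libraries. No control library without transposase was used here, and these peaks met none of the 108 domains, which by their definition lie on chromosomes 1 to 19 and X.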

How the results depend on the processing

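The number of domains was 61 with the 30000 strongest peaks, 2 with a width of 3000 bp (50% of them at a gene start) and 12 with a mean covered width of 2000 bp; it was 150 with 100000 peaks and 110 when gaps of up to 100 bp were merged. The share at gene starts stayed within its counting error under the other settings tried. The count of domains narrower in old libraries was 0 in the other settings and 1 when every merged region was fitted, namely chr13:5802855-5804910 (log2 change -0.5468); the count wider in old was 0 in all. Over all constitutive regions 7 were called, against 48 wider and 118 narrower when every merged region was fitted and 0 with the replicate block. The median log2 change of the domains was -0.2093 without scaling, where that of all constitutive regions was -0.0968, and -0.0186 with all deposited peaks. With 108 regions chosen by mean scaled width it was 0.0444, and the difference in width ratio was 0.124; this set was chosen after seeing the data. The causes of these shifts were not tested. Leaving out 1 library moved the difference in median width between -423 and -176 bp, the former without old replicate 1 and the latter without old replicate 2, and the difference in width ratio between -0.306 and -0.167.

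Replicate numbers are shared by the ages in the labels, but same-numbered libraries did not deviate together (correlations of 0.0367, 0.0815 and -0.0339 over constitutive regions). With the replicate block the counts were 0 wider and 0 narrower domains, beside 0 and 0 of all constitutive regions, and the paired difference in median width was -276 bp. Arms of 2 libraries in the fits that leave one out were taken to vary like the other arm.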
